A study of Mus musculus with 24 samples.

Results

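A list of 35 interferon-stimulated genes was followed in mouse B-cell lymphomas treated with Adriamycin (doxorubicin, shortened to ADR), a cytostatic that breaks DNA. Members were the genes on that list, each read from the probe set that named 1 gene only and had the highest mean over the 24 arrays. Of the 35 genes, 33 had such a probe set, among 18193 genes measured. Isg15 and Ifi44 had none and were not analysed here. Rigi, an RNA sensor, is listed in the array annotation under its older symbol Ddx58.

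The ADR group held 12 lymphomas exposed to 0.05 µg/ml for 5 days in culture, and the untreated group held the same 12 lymphomas without the drug. All were primary cells from lymph nodes of Eµ-Myc transgenic mice, which express the c-Myc oncogene in the B lineage, and every culture carried a retroviral Bcl2 gene that protects from apoptosis. Both groups grew on NIH 3T3 mouse fibroblasts irradiated with 20 Gy, so RNA of feeder cells can be in any sample. The comparison asks which transcripts differ between lymphoma cells that the labels call senescence-induced and matched untreated cells. Levels are given as log2 expression, and a change is the ADR level minus the untreated level of the same lymphoma. A fold is given only where both group means exceeded 4.47, the highest array median, since weaker probe sets lie near the floor of the method. Of the 7 measured B cell markers, 7 lay above that level in both groups.

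Interferons bind receptors on the cell surface, and kinases attached to those receptors activate transcription factors that move to the nucleus. A complex that holds STAT2 and IRF9 binds a DNA element called the interferon-stimulated response element (ISRE), and the gamma-activated sequence (GAS) is the other main element of the pathway. The genes switched on in this way include sensors of foreign nucleic acid, enzymes that block viral replication, and factors that amplify or end the response. Such genes are also known to be induced in cells with damaged DNA.

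The 250 bases before the RefSeq start of a gene (GRCm38.p6) were searched on both strands for the ISRE core GAAANNGAAA and the GAS element TTCNNNGAA, where N is any base, and matches of 1 motif could overlap each other. Promoter windows were matched for 24 of the 35 members, and 12 of the 24 held an ISRE core, against 936 of 27025 genes (3.46%) with a window. A GAS element stood in 4 of the 24, against 2197 of 27025 genes (8.13%). Of members called higher with ADR by the test given below, 9 of 16 with a window held the ISRE core, and of members not called 2 of 6 did. The stretches that follow belong to the 8 measured members with a match and the highest change. They are shown because they hold the element that names the group. Each runs 5′ to 3′ along its gene, with ISRE cores in capitals and up to 20 bases on each side. A match is a description of these letters, not of a bound site.
Ifit1, chr19:34640765-34640833, + strand: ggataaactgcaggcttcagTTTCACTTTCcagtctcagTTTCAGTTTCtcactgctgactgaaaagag
Rsad2, chr12:26456543-26456592, - strand: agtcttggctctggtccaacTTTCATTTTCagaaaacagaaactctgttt
Ifit3, chr19:34583353-34583436, + strand: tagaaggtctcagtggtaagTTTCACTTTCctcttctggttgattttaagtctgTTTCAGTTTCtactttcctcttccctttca
Oas1a, chr5:120907526-120907565, - strand: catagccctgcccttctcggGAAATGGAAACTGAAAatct
Gbp2, chr3:142620584-142620633, + strand: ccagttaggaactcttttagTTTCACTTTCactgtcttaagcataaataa
Oas3, chr5:120777705-120777754, - strand: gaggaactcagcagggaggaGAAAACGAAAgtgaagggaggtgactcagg
Stat2, chr10:128270256-128270305, + strand: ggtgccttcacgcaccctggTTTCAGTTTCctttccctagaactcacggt
Bst2, chr8:71537567-71537622, - strand: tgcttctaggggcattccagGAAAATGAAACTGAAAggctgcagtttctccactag

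The core nearest the start began 85 bases before it in Ifit1, 120 in Rsad2, 122 in Ifit3, 14 in Oas1a, 59 in Gbp2, 75 in Oas3, 222 in Stat2 and 124 in Bst2. Ifit1, Ifit3, Oas1a and Bst2 held 2 cores each, and those of Oas1a and Bst2 overlapped. The unmeasured Isg15 held 3. Irf7, Irf9, Oasl2, Cmpk2, Xaf1, Rigi and Ifi35, which were also called higher with ADR, held none in their windows. The windows of Gbp3 and Irgm1, members that were not called, held 2 cores each.

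Most interferon-stimulated genes were higher in ADR-treated lymphomas than in their untreated matches. By limma with the lymphoma as a block, and p-values adjusted by Benjamini-Hochberg over 18193 genes, 23 of 33 members were called higher at an adjusted p under 0.05 and 0 lower. Of all genes, 13.7% were called higher and 12.8% lower. The limma fit gave 0 members lower at an unadjusted p under 0.05. Without the lymphoma as a block, 13 members were called higher and 0 lower, where 8.96% of all genes were called higher and 8.68% lower. The median change over the members was 0.69, against -0.006 over all genes. Of the members, 11 were called and at least 2-fold higher, as were 3.61% of all genes. Both counts include genes with a group mean near the floor, among the members Ifit1. Centring each array on its median moved the median of all genes by -0.11, and 18 members were then called higher and 0 lower. Under that centring the calls over all genes split into 1799 higher and 4283 lower, against 2500 and 2329 as deposited.

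**Figure D1:**
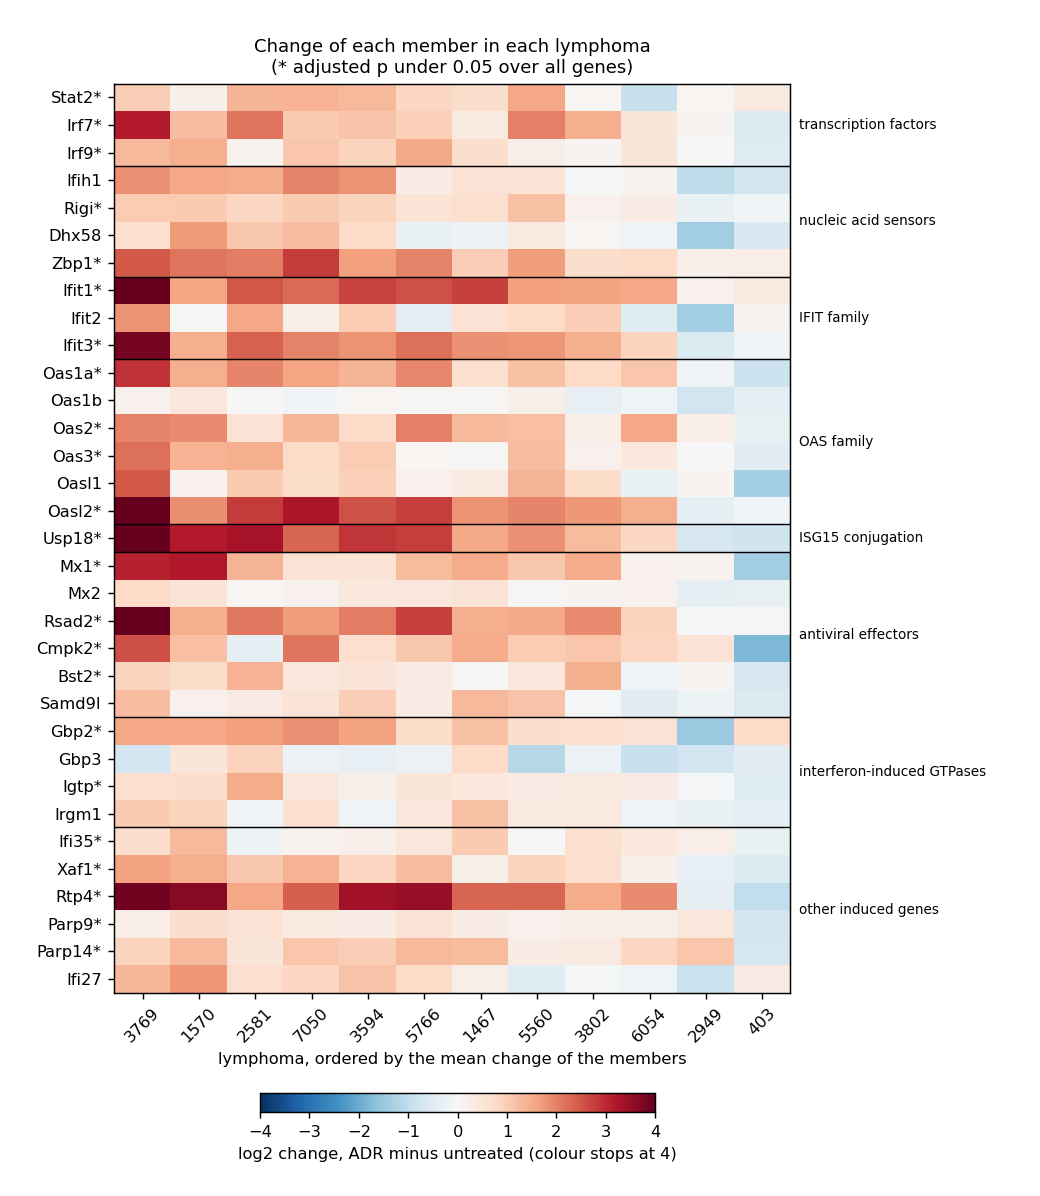
Log2 change (ADR minus untreated) of 33 members, in rows grouped by role, in 12 lymphomas, in columns ordered by the mean change of the members. Red is higher with ADR, blue is lower, and asterisks mark members called higher. The 2 columns at the right, 2949 and 403, are mostly blue or pale, and Oas1b and Gbp3 are the rows with a change below 0 over the 12 lymphomas.

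Among the transcription factors of the pathway, 3 of 3 members rose. Irf7, a factor that amplifies interferon production, had 6.14, 6.93 and 9.48 (lowest, median and highest log2 expression) in ADR-treated lymphomas, against 5.21, 6.01 and 7.84 in untreated ones. It was higher with ADR in 11 of 12 pairs, and 7 untreated arrays lay below every ADR array. The log2 change was 1.13 (SE 0.26, 2.18-fold, limma adjusted p = 0.00579). Stat2 and Irf9, parts of the complex that binds the ISRE, changed by 0.66 and 0.62, each higher in 11 of 12 pairs (adjusted p = 0.02 and 0.0161). The exception was lymphoma 6054 for Stat2, at -0.91, and lymphoma 403 for Irf9, at -0.53.

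Of the 4 sensors of nucleic acid, 2 rose. Zbp1, a sensor of left-handed DNA and RNA helices that can start cell death, had 5.75, 7.43 and 8.92 in ADR-treated lymphomas, against 4.87, 5.68 and 6.47 in untreated ones (lowest, median and highest). It was higher with ADR in 12 of 12 pairs, and 9 of the 12 ADR arrays lay above the highest untreated array. The change was 1.48 (SE 0.22, 2.78-fold, adjusted p = 0.000326). Rigi, a sensor of RNA ends, rose by 0.61 (adjusted p = 0.00359) in 10 of 12 pairs. Ifih1, a sensor of long double-stranded RNA, had a change of 0.70 with a larger error (SE 0.27, adjusted p = 0.0705), and Dhx58, a helper and regulator of these sensors, one of 0.27 (adjusted p = 0.45).

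The IFIT proteins bind viral RNA, and 2 of 3 members rose. Ifit1 had 2.99, 6.02 and 8.08 in ADR-treated lymphomas, against 2.58, 3.42 and 6.01 in untreated ones. It was higher with ADR in 12 of 12 pairs, by 0.18 in lymphoma 2949 up to 4.88 in lymphoma 3769. Its untreated mean, 3.85 ± 1.19, lay near the floor, while the ADR mean was 5.90 ± 1.38 (SD, n = 12 each), and the log2 change was 2.05 (SE 0.32, limma adjusted p = 0.00038). Ifit3 changed by 1.58 (2.98-fold, adjusted p = 0.00151) in 10 of 12 pairs. Ifit2 had a change of 0.41 (SE 0.24, adjusted p = 0.236).

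The OAS enzymes make a messenger that activates RNA decay, and 4 of 6 members of the family rose. Oasl2, a member whose protein resembles these enzymes and carries ubiquitin-like domains, had 3.88, 6.88 and 8.65 in ADR-treated lymphomas, against 3.05, 4.32 and 6.80 in untreated ones. It was higher with ADR in 10 of 12 pairs, and 6 ADR arrays lay above every untreated array. The change was 2.04 (SE 0.36, 4.11-fold, limma adjusted p = 0.00104). Oas1a, Oas2 and Oas3 rose by 1.15, 1.07 and 0.69. Oasl1 had a change of 0.54 (adjusted p = 0.127). Oas1b, best known as a flavivirus resistance gene of the mouse, differed by -0.06 (SE 0.09, adjusted p = 0.707) and was higher in 6 of 12 pairs.

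Usp18, the protease that removes ISG15 from proteins and damps receptor signalling, was the measured member of ISG15 conjugation. It had 4.21, 7.61 and 9.02 in ADR-treated lymphomas, against 3.50, 5.34 and 8.94 in untreated ones. The highest untreated array, of lymphoma 403, reached nearly the highest ADR array, of lymphoma 5560, so the groups overlapped. Within pairs Usp18 was higher with ADR in 10 of 12 lymphomas, with a change of 1.91 (SE 0.42, 3.76-fold, limma adjusted p = 0.00403). Its change followed the mean change of the other 32 members most closely of all members (Pearson r = 0.978 over 12 lymphomas, which share their arrays). For Gbp3, the member least like the others, that r was 0.23.

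Of the 6 antiviral effectors, 4 rose. Rsad2, or viperin, which makes a chain-ending nucleotide, had 5.21, 8.16 and 10.32 in ADR-treated lymphomas, against 4.79, 6.27 and 8.37 in untreated ones. It was 3.20-fold higher with ADR (change 1.68, SE 0.32, limma adjusted p = 0.0017), in 10 of 12 pairs. Cmpk2, a mitochondrial nucleotide kinase encoded beside Rsad2, changed by 0.88, and Mx1, a GTPase that blocks viral nucleoproteins, by 1.09. Bst2, or tetherin, which holds virions at the cell surface, was 1.37-fold higher with ADR, at 9.75 ± 0.50 against 9.29 ± 0.48 untreated, a high level in both. Mx2 and Samd9l had changes of 0.22 and 0.39 (adjusted p = 0.11 and 0.117).

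The interferon-induced GTPases attack vacuoles that hold microbes, and many are known for their response to interferon gamma. Of 4 members, 2 rose. Gbp2 was 1.92-fold higher with ADR (change 0.94, SE 0.23, limma adjusted p = 0.0088), in 11 of 12 pairs, with lymphoma 2949 at -1.49. Igtp rose by 0.40 and Irgm1 had a change of 0.32 (adjusted p = 0.117). Gbp3 had 5.995, 6.75 and 9.12 in ADR-treated lymphomas, against 6.27, 7.10 and 8.64 in untreated ones. It was lower with ADR in 9 of 12 pairs, but the mean change of -0.24 was close to its error (SE 0.17, adjusted p = 0.37).

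Of the 6 measured members of other functions, 5 rose. Rtp4, a chaperone of membrane receptors that also restrains some viruses, had the largest change of the members. Its levels were 4.24, 8.17 and 10.27 in ADR-treated lymphomas, against 4.03, 5.81 and 9.89 in untreated ones. It was 4.23-fold higher with ADR (change 2.08, SE 0.40, limma adjusted p = 0.00162) in 10 of 12 pairs, and the wide spread of both groups made them overlap. Parp14 and Parp9, ADP-ribosyltransferase family members, rose by 0.77 and 0.29, Xaf1, a pro-apoptotic factor, by 0.73, and Ifi35 by 0.38. Ifi27 had a high level throughout and a change of 0.45 (SE 0.20, adjusted p = 0.123).

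**Figure D2:**
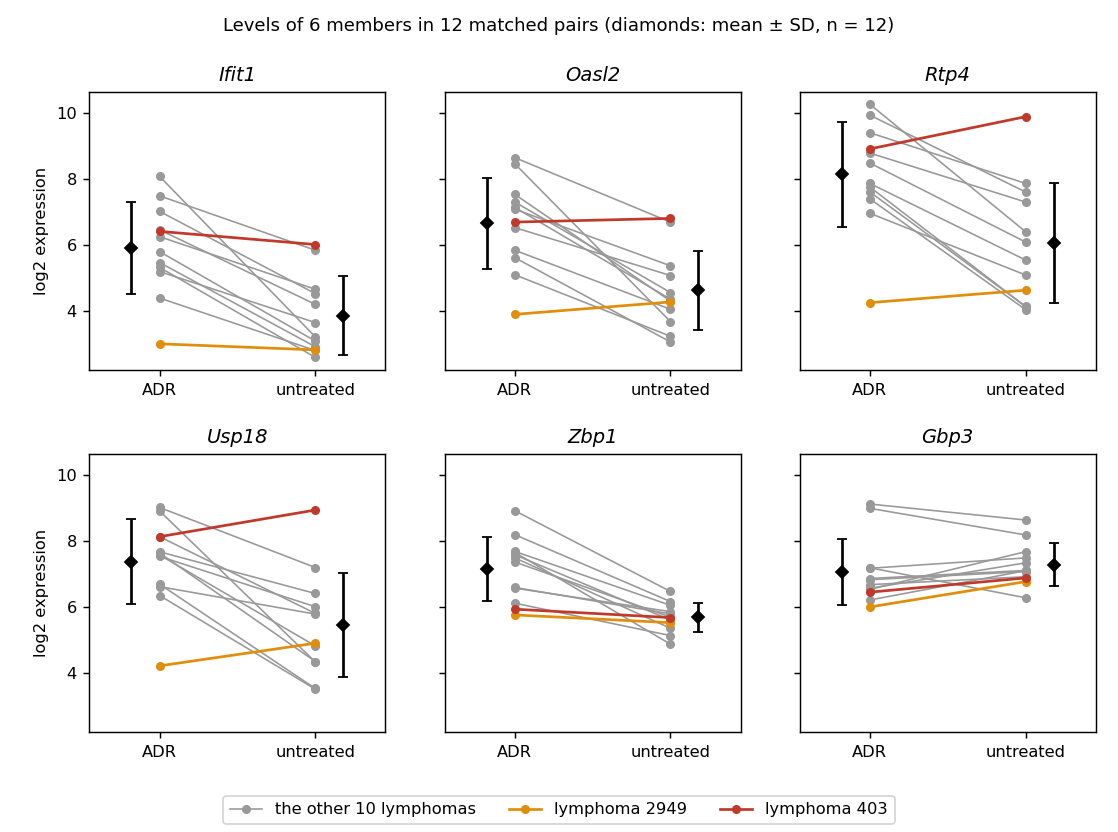
Log2 expression of 6 members in 12 matched pairs, ADR at the left and untreated at the right of each panel, with lines joining a lymphoma and diamonds for the mean ± SD (n = 12). Lymphoma 403 (red) starts high without ADR in Ifit1, Oasl2, Rtp4 and Usp18, and lymphoma 2949 (orange) is the lowest of the ADR points in these 4 genes.

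Of the 23 calls, 16 held when any 1 lymphoma was left out. The calls of Oas3 and Mx1 were each lost in 1 leave-out, narrowly: without 2581 the adjusted p of Oas3 was 0.0511, and without 3769 that of Mx1 was 0.0529. Igtp, Bst2, Cmpk2, Ifi35 and Parp9, all with an adjusted p between 0.0288 and 0.0485, lost the call in 4, 8, 9, 9 and 11 of the 12 leave-outs. Several probe sets of a gene did not always move alike. A second probe set of Rtp4 had levels of 3.13 with ADR and 3.19 untreated and a change of -0.06. For Cmpk2 and Parp14 the weaker probe sets had changes of 0.12 and 0.06, with levels of 4.67 and 4.27 in ADR-treated lymphomas. The other probe sets of Rigi had changes of 0.255 and 0.258 and were not called (limma adjusted p = 0.0779 and 0.254). Those of Ifi35, at 0.23 and 0.41, and of Xaf1, at 0.40, were also above 0 without a call. For Rsad2, Zbp1, Stat2 and Gbp2 all probe sets rose.

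The rise was absent in 2 lymphomas. The mean change over the 33 members was 1.97 in lymphoma 3769, between 0.89 and 1.33 in lymphomas 1570, 2581, 7050, 3594, 5766, 1467 and 5560, 0.66 in 3802 and 0.39 in 6054. It was -0.24 in lymphoma 2949 and -0.42 in lymphoma 403. In 3769, 32 of 33 members were higher with ADR, and in 1570 all 33. In 2949, 13 members were higher and 20 lower, and in 403 there were 6 higher and 27 lower.

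Of the 23 called members, 19 were lower with ADR in lymphoma 403, 11 in 2949 and 10 in both, while 19 of the 23 were higher in each of the other 10 lymphomas. Zbp1 and Ifit1 were the members that were higher with ADR in every lymphoma. In 2949 and 403 Zbp1 changed by 0.24 and 0.26, and Ifit1 by 0.18 and 0.40. Stat2 was also higher in both, by 0.08 in 2949 and 0.38 in 403. Several called members were lower in only 1 of the 2 lymphomas, mostly in 403. Examples are Parp14 (lymphoma 403 at -0.69) and Gbp2 (lymphoma 2949 at -1.49). Each lymphoma has 1 array per state, so these values have no replicate of their own.

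The 2 lymphomas without the rise differed in their untreated level. The mean level of the 33 members was 7.52 with ADR and 7.95 untreated in lymphoma 403, whose untreated level was the highest of the 12. In lymphoma 2949 it was 6.09 with ADR and 6.32 untreated, and the ADR level was the lowest of the 12. The untreated mean lay above the average of the untreated arrays for 30 of 33 members in 403, 31 in 5560 and 8 in 2949. Usp18 shows this, with 8.13 with ADR and 8.94 untreated in 403, and 4.21 with ADR and 4.89 untreated in 2949.

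Lymphoma 5560 also began high, at 7.39 untreated, and still reached 8.28 with ADR. Lymphoma 3769 began at 6.51 and reached the highest ADR level, 8.48. In 3769 the changes of Ifit1, Oasl2, Usp18 and Rsad2 were 4.88, 4.80, 4.59 and 4.56, and that of Gbp3 was -0.77. In lymphoma 6054 the OAS family changed by 0.68 on average. The transcription factors there averaged 0.02, with Irf7 and Irf9 each at 0.48 and Stat2 at -0.91.

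**Figure D3:**
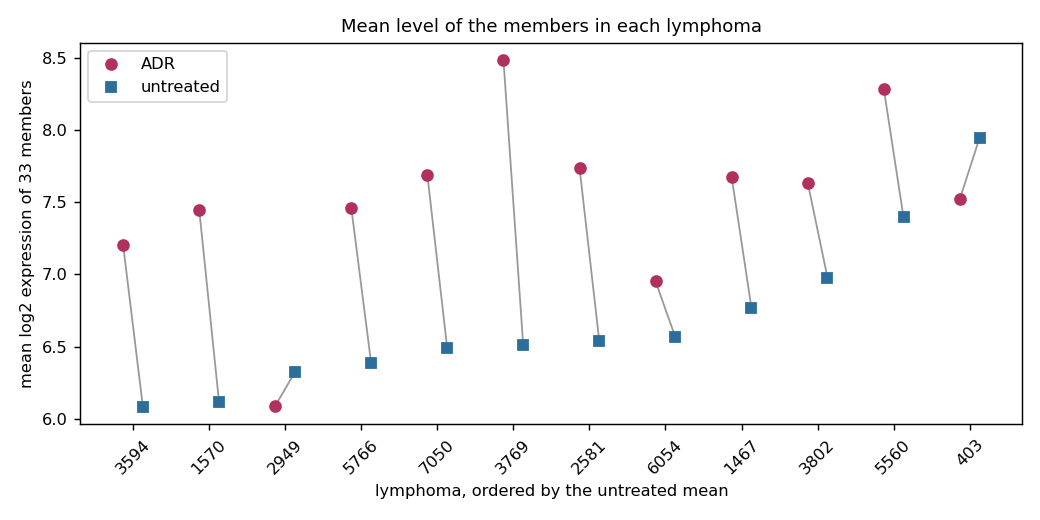
Mean log2 expression of the 33 members in each lymphoma, with ADR (circles, left) and untreated (squares, right), ordered by the untreated mean. Circles lie above squares in 10 lymphomas and below them in 2949 and 403, which stand at different untreated levels.

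Over the 12 lymphomas, the untreated level and the change of the member mean had Pearson r = -0.50 and Spearman rho = -0.50, given as a description because the change contains the untreated level. With the 2 lymphomas most distant from the median untreated level left out, 403 and 5560, r was -0.13. Without 403 alone it was -0.12, and without 2949 it was -0.72. For 31 of 33 members the r between untreated level and change was below 0. Untreated and ADR levels of the member mean had r = 0.33 (rho 0.45). In untreated lymphomas, the level of a member had an r between -0.21 and 0.95 with the mean of the others. Irf7, Mx1 and Xaf1 stood at 0.951, 0.947 and 0.941, while Zbp1, Gbp2, Gbp3 and Samd9l lay below 0. Zbp1 thus did not follow the other members before treatment (r = -0.03) but its change did (r = 0.875).

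A test of spread avoids that arithmetic tie, since it asks whether lymphomas differed more or less from one another with ADR. For each gene, the sum and the difference of the paired values were correlated over 12 lymphomas (a Pitman-Morgan test with 100000 permutations, two-sided). After adjustment over 18193 genes, 3.73% of genes were called and 0 of 33 members, with 3 members at an unadjusted p under 0.05. Those were Zbp1, whose SD between lymphomas was 0.97 with ADR and 0.44 untreated (permutation p = 0.0103, adjusted p = 0.137), Stat2 (0.83 and 0.45) and Gbp3 (1.00 and 0.64). The SD was larger with ADR for 19 members and smaller for 14, a split that turned on single lymphomas. It was 11 larger and 22 smaller without 2949, 15 and 18 without 3769, and 25 and 8 without 403. Without lymphoma 7050 the test called 1 member, Zbp1 (permutation test, adjusted p = 0.0325), and the lowest adjusted p of a member over the other leave-outs lay between 0.0954 and 0.24.

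The interferon genes themselves stayed near the floor. Of 6 measured interferon ligands, 0 were called by limma in either direction, and 1, Ifna1, had group means above 4.47. Ifnb1, the main interferon of non-immune cells, had 3.97 ± 0.23 with ADR and 3.99 ± 0.27 untreated (SD, n = 12 each), a change of -0.02. Ifna5 had the largest difference of the ligands, -0.18 (SE 0.08, adjusted p = 0.134), and Ifna1 one of 0.10. Levels this close to the floor do not show whether a low amount of ligand RNA differed.

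Of 9 receptor and kinase genes, 3 rose and 0 fell, where 13.7% of all genes were called higher and 12.8% lower. Il10rb, a shared receptor chain for interferon lambda and IL-10, was 2.04-fold higher with ADR, at 8.99 ± 0.70 against 7.97 ± 0.62 untreated (change 1.03, limma adjusted p = 9.2e-05), in 12 of 12 pairs. Ifngr2, a chain of the interferon gamma receptor, rose by 0.79 and Jak1, a kinase shared by the receptors, by 0.49. Ifnar1, a chain of the receptor for interferon alpha and beta, had a change of 0.26 (SE 0.15, adjusted p = 0.248). Of 7 other STAT and IRF genes, 1 rose, near the share of all genes: Irf5, by 0.45 (limma adjusted p = 0.0109).

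A list for nucleic acid sensing upstream of interferon held 15 measured genes, not only sensors but also adaptors, kinases and other enzymes. Of these 15, 7 rose and 0 fell, where 13.7% of all genes were called higher and 12.8% lower. Ifi204, a DNA sensor, had 6.13 ± 1.31 with ADR and 4.23 ± 1.09 untreated, a log2 change of 1.90 from near the floor (limma adjusted p = 0.000119), in 12 of 12 pairs. Ikbke, a kinase that activates interferon regulatory factors, rose by 1.25 and Tlr7, a receptor for single-stranded RNA in endosomes, by 1.19. Cgas, the sensor of cytosolic DNA, had 5.58 ± 0.31 with ADR and 5.59 ± 0.51 untreated (adjusted p = 0.988). Its partner Sting1 had a change of -0.22 (SE 0.11, adjusted p = 0.172). Of 7 feedback inhibitors, 2 rose, Socs3 by 0.75 and Socs1 by 0.41. Another 1 fell, the phosphatase gene Ptpn2, by 0.37 on the log2 scale. These small counts stand beside 13.7% higher and 12.8% lower over all genes.

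Of 37 measured genes on a further list of interferon-induced genes, 14 rose and 3 fell, with a median change of 0.35. Over all genes 13.7% were called higher and 12.8% lower. Ifitm3, which blocks viral entry, was 3.95-fold higher with ADR (10.29 ± 1.34 against 8.31 ± 1.39 untreated), in 11 of 12 pairs. Slfn2 and Slfn8, of the Schlafen family, were 3.09-fold and 3.01-fold higher. Psmb9, a subunit of the immunoproteasome, was lower with ADR, at 8.92 ± 0.31 against 9.37 ± 0.40 untreated (change -0.44, adjusted p = 0.0116). Over all these lists 27 genes were called higher, against 8 with the fibroblast marker mean of each array in the fit. Some of those 8 were not among the 27. With the macrophage marker mean in the fit 0 were called higher. The shares of all genes called higher in these fits were 13.7%, 2.45% and 0.269%, in that order, so calls fell over all genes too. The change of Ifitm3 was 0.56 with the fibroblast markers in the fit, and that of Ikbke was -0.15 with the macrophage markers.

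Markers of other cells moved in the same arrays. Of 25 fibroblast markers 21 rose, with a median change of 2.13, and their mean level per array lay between 4.69 and 8.94 with ADR and between 4.29 and 5.17 untreated. Of 17 macrophage markers 11 rose, with a median change of 1.34 and array means between 6.08 and 9.0 with ADR and between 4.98 and 8.0 untreated. Group means above 4.47 were found for 22 fibroblast markers with ADR and 11 untreated, and for 14 macrophage markers with ADR and 12 untreated. Adgre1, a surface receptor of macrophages, had 9.40 ± 1.59 with ADR and 7.21 ± 1.76 untreated. Of 11 neutrophil markers 4 rose, and 5 of the 11 lay above 4.47 with ADR and 4 untreated. Of 12 T and NK cell markers 1 rose and 1 fell, both with group means below 4.47, and 4 of the 12 lay above 4.47. Of 8 dendritic cell markers 2 fell, Flt3 and Ccr7, and 4 of the 8 lay above 4.47. Of 7 B cell markers 3 fell. Over all genes 13.7% were called higher and 12.8% lower. In bulk RNA, a different share of a cell type and a different amount of RNA per cell cannot be told apart.

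The fibroblast change did not have the order of the member change. Lymphoma 403 had the highest fibroblast marker change, 4.29, and the lowest member change, -0.42. Lymphoma 1467 had the lowest fibroblast marker change, -0.12, and a member change of 0.91, with 32 of 33 members higher. Over the 12 lymphomas r was -0.02 (rho 0.08), and without 1467 and 403 it was 0.49. Within the 7 lymphomas whose treated array files are named DOX it was 0.86.

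For macrophage markers the order was closer. The 2 lymphomas without the rise had the lowest macrophage marker changes, 0.44 in 2949 and 0.18 in 403, and 6054 followed with 0.57. The macrophage marker change was highest in 2581, at 2.82, where the members changed by 1.20, and it was 1.60 in 3769. Over the 12 lymphomas r was 0.65 (rho 0.69), 0.63 without 2581 and 403, and 0.77 within the DOX set. Untreated macrophage marker means were highest in 5560 and 403, at 8.0 and 7.68, the 2 lymphomas with the highest untreated member levels, and 2949 stood at 6.04. Other lymphomas broke that order: 3594, with the lowest untreated member mean (6.08), had a macrophage mean of 7.09, and 1467, with a member mean of 6.77, had 5.07. Between the 2 untreated means r was 0.52 over the 12 lymphomas (rho 0.46), 0.61 without 1570 and 1467, and 0.09 within the DOX set. These points share their arrays with the member values. Macrophages express interferon-stimulated genes too, and from which cells the member RNA came was not tested.

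**Figure D4:**
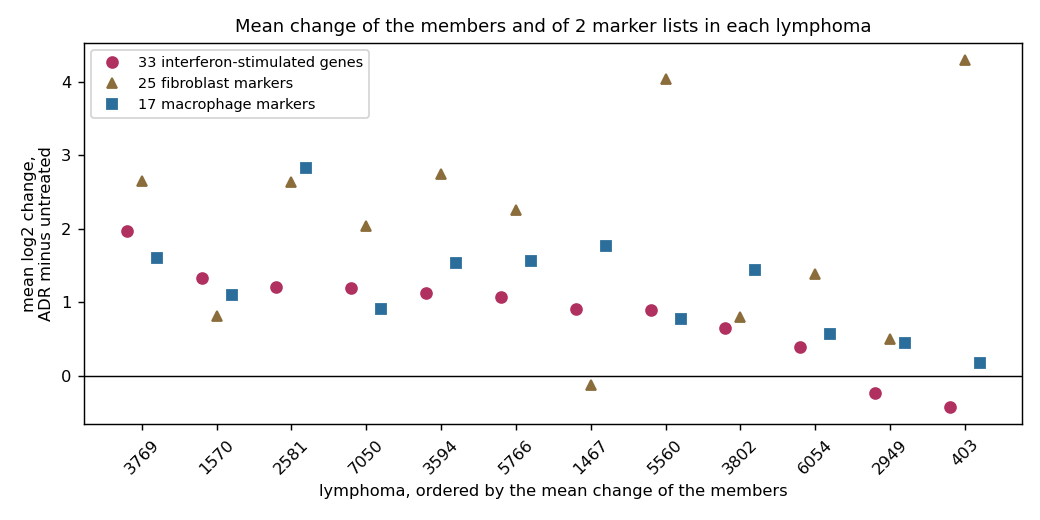
Mean log2 change (ADR minus untreated) of the 33 members (circles), 25 fibroblast markers (triangles) and 17 macrophage markers (squares) in each lymphoma, ordered by the member change. Lymphomas 2949 and 403 have the lowest squares, at 0.44 and 0.18, while the triangle of 403 is the highest, at 4.29.

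With the fibroblast marker mean of each array in the fit, the mean change of the members was 0.85, against 0.84 without it, and 31 of 33 changes stayed above 0. limma then called 2 members, Parp14 (change 1.33, adjusted p = 0.00485) and Ifi35 (0.90, adjusted p = 0.00846), and 2.45% of all genes as higher. At an unadjusted p under 0.05 there were 17 members. The change of Stat2 was 0.15 in that fit, against 0.66 without the markers. With the macrophage marker mean in the fit, the mean change of the members was 0.10 and 20 of 33 changes were above 0. limma called 0 members there and 0.269% of all genes as higher, and 1 member had an unadjusted p under 0.05. The changes furthest above 0 were then 0.89 for Rtp4 and 0.80 for Zbp1 and Oas2. Marker means were higher with ADR in 12 of 12 lymphomas for macrophages and in 11 for fibroblasts, so these fits separate marker level and drug only in part.

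**Figure D5:**
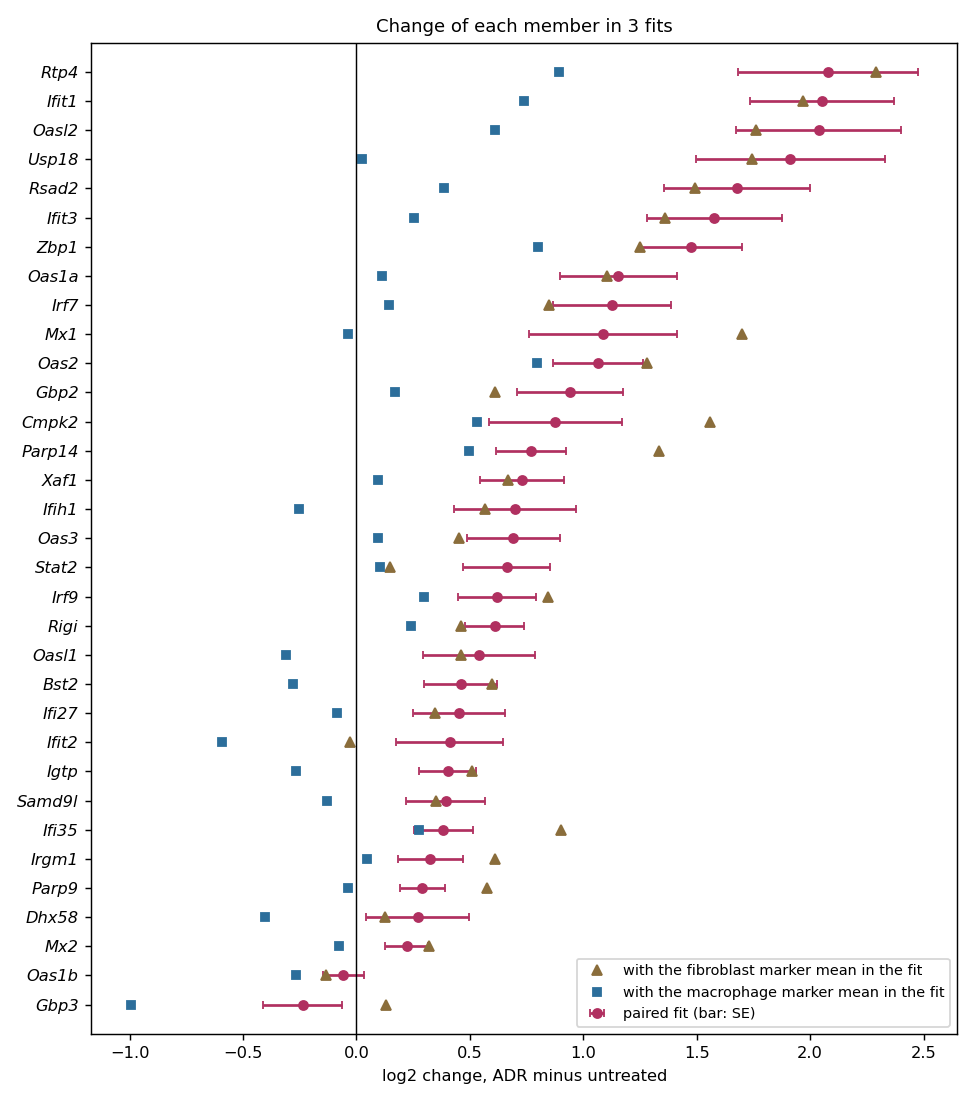
Log2 change (ADR minus untreated) of each member in the paired fit (circles, bars ± SE), with the fibroblast marker mean (triangles) and with the macrophage marker mean (squares) added. Triangles stay around the circles for most members, whereas squares lie below the circles for all 33.

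The names of the treated array files fall into 2 sets, DOX (7 lymphomas) and sen (5 lymphomas), which may mark a batch. The mean change of the members was 0.88 in the DOX set and 0.78 in the sen set. limma on the paired differences called 0 members for a difference between the sets, with 0 at an unadjusted p under 0.05, and 0.0% of all genes. Within the DOX set 17 members were called higher and 1, Gbp3, lower (change -0.50), where 9.06% of all genes were called higher and 8.8% lower. Within the sen set, with 5 pairs, Ifit1 and Gbp2 were called higher and 0 members lower, where 1.86% of all genes were called higher and 2.6% lower. Lymphoma 2949 belongs to the DOX set and 403 to the sen set, so the rise was absent in 1 lymphoma of each.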

How the data were processed

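Total RNA of 24 samples was hybridised to Affymetrix arrays. The authors deposited log2 values per probe set; the submitters' processing notes name RMA and Partek, whose versions and settings are not given in the sources used here. That the values are log2 follows from their range. RMA compresses weak signals toward a floor, so changes of weak genes look smaller. Of 45101 probe sets, 34945 named 1 gene, 932 several and 9160 none, and 64 were controls. Each of 18193 genes was read from 1 single-gene probe set, that of the highest mean. Arrays have no read depth; their number limits the precision, and each pair came from a separate lymphoma.

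Arrays were paired by the lymphoma number in their titles, since the series' design speaks of matched pairs. Deviations from the group means correlated at 0.267 to 0.595 within pairs, above 0.1 in 12 of 12. By these correlations 10 of the 12 ADR arrays were closest to their own untreated array. limma 3.58.1 in R 4.3.3 (lmFit, eBayes, lymphoma as block) tested all genes, with Benjamini-Hochberg adjustment and a threshold of 0.05. Spread tests used 100000 permutations in numpy 2.4.6. Both were checked on simulated data. Every member could be named; from other lists, the 3 called genes that changed most in the main direction and the 1 that changed most against it (without calls, the 2 that differed most), and Ifnb1, Ifnar1, Cgas and Sting1 as anchors; 1 further anchor is not reported here. The members and lists were chosen with earlier results of these data known. Alternatives covered pairing, centring, quantile normalization, probe set choice, a floor filter, moderation, marker covariates, naming sets and leaving out each lymphoma.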

Additional observations from a re-analysis of the deposited data

How the results depend on the processing

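Without the replicate block 13 members were called higher, against 23 with it (8.96% of all genes, against 13.7%), and the pathway lists held 1 gene called lower, against 4. With the fibroblast marker covariate 2 members were called higher, and 8 pathway genes higher and 0 lower, against 27 and 4. Some of those 8 were not among the 27. Of all genes 2.45% were called higher in that fit, against 13.7%. Ifit2 turned to -0.030 and Gbp3 to 0.13 in it. The macrophage marker covariate left 0 members called, a mean member change of 0.10, and 0 pathway genes higher and 1 lower. Of all genes 0.269% were called higher in that fit. There Ifih1 turned to -0.25, Dhx58 to -0.40, Ifit2 to -0.59, Oasl1 to -0.31, Mx1 to -0.037, Mx2 to -0.077, Bst2 to -0.28, Samd9l to -0.13, Igtp to -0.27, Parp9 to -0.036 and Ifi27 to -0.084. The DOX set had 1 member called lower. The sen set had 2 called higher, 1 pathway gene higher and 1 lower, with Oas1b at 0.072 and Gbp3 at 0.13; 5 pairs entered that fit. With the probe set of largest variance Dhx58 was at -0.089 and 2 pathway genes were lower.

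Leaving out 1 lymphoma at a time gave 17 to 25 members called higher and 0 lower, mean changes of 0.74 to 0.95, and a correlation of untreated level with change of -0.72 (without 2949) to -0.12 (without 403). The change of Oas1b lay between -0.10 and 0.0061, above 0 without 2949 alone. It gave 0 to 1 members with unequal spread and 0 members that differed between naming sets. The pathway lists held 25 to 31 genes called higher and 3 to 4 lower; these counts were added after seeing the data. The cause of these differences was not tested. Centring, quantile normalization, other probe set choices, the floor filter and other moderation gave 18 to 24 members called higher. Weak probe sets near the floor limit what can be said of interferon ligands.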
